A study of Mus musculus with 3 samples.

Results

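The proliferins, encoded by the mouse Prl2c genes, were followed across 3 arrays of embryonic stem cell RNA, 1 array for each genotype. The genes considered were Prl2c1, Prl2c2, Prl2c3 and Prl2c5, chosen because earlier results on these same arrays had placed Prl2c1 and Prl2c5 among the genes with the largest differences between Pcgf6KO and wildtype. All probes carrying a RefSeq accession of these genes were taken, which gave 3 of the 55681 probes. Probe A_55_P2183208 reads Prl2c1 through NM_001045532, and probes A_52_P619248 and A_55_P2004752 read Prl2c5 through NM_181852. No probe carried a RefSeq accession of Prl2c2 or Prl2c3, so 2 of the 4 genes are represented by name. Proliferin genes are near-identical copies, and each of these probes may also read transcripts of the copies without a probe of their own.

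The study compared wildtype male mouse embryonic stem cells, the same kind of cells in which Pcgf6 had been disrupted with Cas9 (Pcgf6KO), and Pcgf6KO cells given Flag-tagged Pcgf6 by lentivirus (Pcgf6KO+ Pcgf6_flag). PCGF6 is a RING finger protein of a variant Polycomb repressive complex. All 3 cultures were kept with leukemia inhibitory factor and fetal calf serum on mouse embryonic fibroblasts arrested with mitomycin C, so feeder RNA can be present in each sample. The source field of the labels also holds the word muscle, while the cell type is given as embryonic stem cell. The labels do not say whether a line is a single clone.

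Proliferins are secreted glycoproteins related to prolactin. They were first recognised as products of growth-stimulated mouse fibroblast lines, and in the embryo they are made by trophoblast giant cells of the placenta, where they promote blood vessel growth. They can bind the cation-independent mannose 6-phosphate receptor, encoded by Igf2r. In the fibroblast setting their transcription responds to serum and to factors of the AP-1 family. The letters TGANTCA, searched below for AP-1, leave the middle base open, which is looser than the site these factors prefer.

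Promoter sequence was matched for 2 of the 4 genes, Prl2c3 and Prl2c5, in the RefSeq annotation of GRCm38.p6. The 250 bases before each start are shown because they let the copy that carries both Prl2c5 probes be set beside a copy with no probe of its own. The capitals mark the only match to any of 4 searched motifs, TGAATCA in Prl2c3. It fits the AP-1 search letters with A as the open base, and whether AP-1 factors bind it was not tested. The Prl2c3 window is chr13:12800080-12800329 on the minus strand and the Prl2c5 window is chr13:13182466-13182715 on the plus strand.
Prl2c3: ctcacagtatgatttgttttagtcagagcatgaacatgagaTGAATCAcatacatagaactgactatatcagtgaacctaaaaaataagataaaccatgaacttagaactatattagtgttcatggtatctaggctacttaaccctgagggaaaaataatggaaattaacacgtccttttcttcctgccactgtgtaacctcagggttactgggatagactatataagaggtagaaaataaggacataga
Prl2c5: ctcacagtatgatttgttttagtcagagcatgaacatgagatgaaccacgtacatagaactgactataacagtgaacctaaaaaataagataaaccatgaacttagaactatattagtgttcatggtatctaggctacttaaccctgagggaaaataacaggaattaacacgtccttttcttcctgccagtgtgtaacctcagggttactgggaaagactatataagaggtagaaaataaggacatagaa

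The windows were nearly the same sequence. Over 251 aligned positions 241 were identical, or 96.0%, with 8 mismatches and 2 gap positions. The AP-1 letters TGANTCA, searched on both strands, began at position -209 from the start of Prl2c3 and were found in 6.75% of the 32851 promoter windows of the same length. The aligned letters in Prl2c5 were TGAACCA, which differ by the substitution T5C, counted from the first letter of the match with the Prl2c3 base first. The E-box CACGTG was found in 6.02% of all windows and in neither of these. The E2F letters TTCCCGC were in 3.82% of all windows and the TATA box letters TATAAA in 12.4%, again in neither. A related run, TATATAA, was searched on both strands after the sequences had been seen. It began at position -30 in Prl2c3 and -31 in Prl2c5, and 3.04% of all windows held it. The searched motifs did not overlap in these windows, and a match describes letters only.

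Levels are log2 of the spot's processed signal minus the 75th percentile of the array's probes, and signals are linear scanner units. With 1 array per genotype there is no replicate, so no test was possible and no p-value is given. The error quoted with a signal is the scanner software's own estimate for that spot and covers neither culture nor RNA preparation. A difference counted when it passed 2-fold, or 1 on the log2 scale. Where a probe was not well above background on 1 of 2 arrays, the difference is a bound, written "at least N-fold". The bound replaces the dim value by the dimmest signal that was well above background on that array, or by the probe's own signal where this was higher.

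The arrays carried 59305 spots that were not controls, and 60.7% to 66.0% of probes were well above background. The lowest signals well above background were 52.7 for wildtype, 53.4 for Pcgf6KO and 103 for Pcgf6KO+ Pcgf6_flag. For probes spotted repeatedly, the median SD between spots was 0.06 on the log2 scale on wildtype and Pcgf6KO and 0.07 on Pcgf6KO+ Pcgf6_flag. Slide 1 held wildtype and Pcgf6KO and slide 2 only the third array, so slide and genotype cannot be told apart in any comparison with it. The probe for Pcgf6 itself had levels of 1.87 in wildtype, 0.84 in Pcgf6KO and 0.42 on the third array. It was thus 2.04-fold lower in Pcgf6KO than in wildtype and not higher on the third array, which is called below the array labelled Pcgf6KO+ Pcgf6_flag. All 12 stem cell markers examined, including Pou5f1, Nanog and Sox2, were well above background on all 3 arrays.

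Prl2c transcripts were abundant in the wildtype sample and far lower in both other samples. Prl2c1 had a processed signal of 14609 ± 1461 in wildtype and 482 ± 49.4 in Pcgf6KO. On the array labelled Pcgf6KO+ Pcgf6_flag it was 628 ± 66.0. The corresponding levels were 1.90, -3.15 and -2.88. Wildtype alone was high, and the other arrays were close to each other. The spot was well above background on each array, at 277, 9.03 and 6.09 times the lowest such signal of that array.

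Prl2c5 was read by 2 probes. On A_52_P619248 the signal was 17449 ± 1745 in wildtype and 151 ± 18.5 in Pcgf6KO, with 21.2 ± 21.3 on the array labelled Pcgf6KO+ Pcgf6_flag. On A_55_P2004752 it was 11172 ± 1117, 70.5 ± 14.2 and 36.5 ± 36.6 on the same arrays. Both probes were well above background in wildtype and Pcgf6KO and not on the third array, where the error was as large as the signal. In levels, A_52_P619248 stood at 2.16, -4.83 and -7.77, and A_55_P2004752 at 1.51, -5.93 and -6.98.

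**Figure D1:**
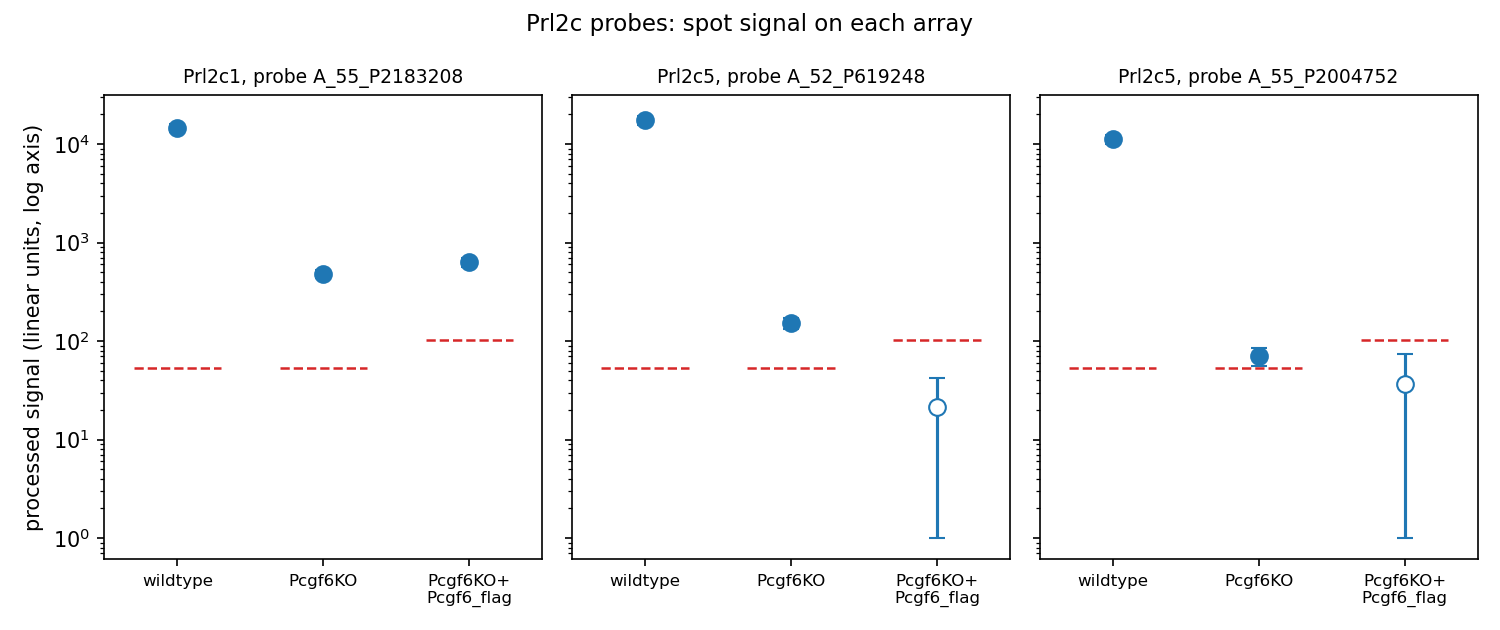
Processed signal (linear units on a log axis) of each Prl2c probe on the 3 arrays. Bars are the scanner software's error for the spot, drawn down to 1 where the error exceeds the signal, open circles mark spots not well above background, and dashed lines show each array's lowest signal well above background. The wildtype signals lie between 11172 and 17449, whereas all others lie at 628 or below.

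Negative control spots give a second view of how close the low values were to background. Of 308 such spots per array, 0 exceeded the wildtype signal of any of the 3 probes. In Pcgf6KO 1 control exceeded A_52_P619248 and 3 exceeded A_55_P2004752, so the Prl2c5 signal there was low but above nearly all controls. On the array labelled Pcgf6KO+ Pcgf6_flag 279 controls exceeded A_52_P619248 and 20 exceeded A_55_P2004752. For Prl2c1, 0 of 308 controls exceeded its signal on that array or in Pcgf6KO. All 3 probes thus had a measured level in Pcgf6KO, and on the third array only Prl2c1 did.

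Pcgf6KO was first set against wildtype, which lay on the same slide. Prl2c1 was 33.2-fold lower in Pcgf6KO, a difference of -5.05 ± 0.21 from the errors of the spots. Prl2c5 was 127-fold lower on A_52_P619248, with -6.99 ± 0.23, and 174-fold lower on A_55_P2004752, with -7.44 ± 0.32. All 3 probes passed 2-fold, where 4.21% of 37973 probes, bounds included, were at least 2-fold lower and 5.17% higher. This contrast was used to choose the genes, so the count only describes them. Ordered from the lowest difference among the 35059 probes measured on both arrays, A_55_P2004752 was at position 1, A_52_P619248 at position 3 and Prl2c1 at position 10. With normexp background correction the size depended on the probe. The differences were then -5.95 for A_55_P2004752, -6.41 for A_52_P619248 and -4.81 for Prl2c1.

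The spot of A_52_P619248 had a local background marked as non-uniform on all 3 arrays, although the spot itself was not marked. The other Prl2c5 probe had no such mark and gave a difference of the same direction.

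The comparison of the array labelled Pcgf6KO+ Pcgf6_flag with wildtype asks whether levels in those cells lay near those of unedited cells. They did not for any Prl2c probe. Prl2c1 was 27.4-fold lower than wildtype, with -4.78 ± 0.21, and held position 5 from the lowest among 32641 probes measured on both arrays. Prl2c5 was at least 199.6-fold lower on A_52_P619248 and at least 128-fold lower on A_55_P2004752. All 3 probes again passed 2-fold, where 5.21% of 35872 probes were lower by as much and 10.6% higher. This comparison shares the wildtype array with the first, so a high wildtype value alone would lower both.

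Between the array labelled Pcgf6KO+ Pcgf6_flag and Pcgf6KO, Prl2c1 differed by 0.28 ± 0.21, or 1.21-fold higher. That is within 2-fold and only slightly more than the spots' error. A_52_P619248 was at least 1.58-fold lower, and A_55_P2004752 gave no bound, because its Pcgf6KO signal lay below the lowest level well above background on the third array. Prl2c1 thus passed 2-fold in neither direction, where 7.6% of 36018 probes were lower and 11.6% higher. A_52_P619248 could not have passed 2-fold downwards, because its Pcgf6KO level of -4.83 was too near -5.49. The latter is the lowest level well above background on the third array. The lowest signal well above background was higher on the third array, at 103 against 53.4, which the bound takes into account. A_52_P619248 was thus lower on the third array while Prl2c1 was 1.21-fold higher. The local background of A_52_P619248 was marked as non-uniform, and A_55_P2004752 gave no bound. Whether Prl2c1 and Prl2c5 as genes differed from each other in this comparison is therefore not settled.

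Other members of the prolactin family were mostly not detected. Of 24 listed symbols, Prl2c4 proved to be an older name of Prl2c3, and 22 were on the array with 26 probes. Of these 22 genes 17 were not well above background on any array, among them the pituitary hormone genes Prl and Gh. The 5 others were Prl3a1, Prl3b1, Prl3d1, Prl3d2 and Prl8a9, each through 1 probe. Prl3d1, Prl3d2 and Prl8a9 were measured only through wildtype, so a lower value elsewhere was the only outcome they could give. No count or median over the family is therefore read as a result.

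Prl3d1 and Prl3d2 encode placental lactogen I, the early prolactin-like hormone of giant cells. Prl3d1 had signals of 191, 12.03 and 23.6 in wildtype, Pcgf6KO and on the array labelled Pcgf6KO+ Pcgf6_flag, and only the wildtype value was well above background. It was at least 3.92-fold lower in Pcgf6KO and at least 2.18-fold lower on the third array. Prl3d2 had signals of 465, 48.7 and 26.5 and was likewise well above background only in wildtype. The bounds were 9.55-fold lower in Pcgf6KO and 5.32-fold lower on the third array. Their wildtype signals were far nearer to background than those of the Prl2c probes.

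Prl3b1, which encodes placental lactogen II, had a different pattern. Signals of 104 and 121 in wildtype and Pcgf6KO stood against 2510 on the array labelled Pcgf6KO+ Pcgf6_flag. It was 20.4-fold higher there than in wildtype and 19.3-fold higher than in Pcgf6KO, and differed by 0.08 between Pcgf6KO and wildtype. Prl3a1 had signals of 172, 157 and 88.5 and was not well above background on the third array, with a bound of 1.96-fold lower than wildtype. Prl8a9, with 81.1, 34.5 and 23.7, was well above background only in wildtype and at least 1.67-fold lower in Pcgf6KO.

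The 4 receptor genes listed, for prolactin, growth hormone and mannose 6-phosphate, were well above background on all arrays at their brightest probe. That probe is the one given. A dimmer Prlr probe was 1.51-fold lower in Pcgf6KO than in wildtype. It was not well above background on the third array. A dimmer Ghr probe was 1.87-fold higher in Pcgf6KO and 3.90-fold lower on the third array than in wildtype. Igf2r, the mannose 6-phosphate receptor that also clears insulin-like growth factor II, had levels of 1.57, 2.01 and 1.59 in wildtype, Pcgf6KO and on the array labelled Pcgf6KO+ Pcgf6_flag. M6pr, the smaller cation-dependent receptor, had 2.54, 2.80 and 2.53. Prlr, the prolactin receptor, stood at -2.75, -2.89 and -2.48. Ghr, the growth hormone receptor, stood at -0.56, -0.02 and -2.62, and was 4.16-fold lower on the third array than in wildtype. In Pcgf6KO 0 of these 4 genes passed 2-fold, where 3.59% of 15871 genes were lower than wildtype and 6.62% higher. Their median difference was 0.35, against -0.02 for all genes. On the third array 1 of 4, Ghr, was at least 2-fold lower than wildtype, where 6.48% of 15209 genes were lower and 5.97% higher. The median was 0.01, against -0.03 for all genes.

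Because proliferins are known both from trophoblast and from fibroblasts, markers of each were set beside them. Most trophoblast genes that passed 2-fold in Pcgf6KO were higher than in wildtype. Of 19 compared 5 were higher and 1 lower, against 6.62% and 3.59% of all genes, with a median of 0.50. Elf5 and Psg17, at least 1.52-fold and 1.54-fold higher, were measured only through Pcgf6KO and could only be higher. They are counted in the 19 and in the median but not in the 5. The homeobox genes Rhox6 and Rhox9 were higher by 1.68 and 1.64, and Hand1, a transcription factor needed for giant cells, by 1.48. Syna, the syncytin-A gene of cell fusion, was lower, with -1.49. Set against Pcgf6KO, the array labelled Pcgf6KO+ Pcgf6_flag had 9 of 16 at least 2-fold lower and 2 higher, where 10.3% of 15330 genes were lower and 6.34% higher. Against wildtype 4 of 18 were lower there, against 6.48% of all genes, and 1 was higher. That 1 was Tpbpa, which is also 1 of the 2 higher than in Pcgf6KO. It was measured only through the third array and could only be higher.

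Many fibroblast markers were lower in both edited samples, the direction seen for Prl2c. In Pcgf6KO 16 of 31 were at least 2-fold lower than wildtype and 0 higher, against 3.59% and 6.62% of all genes, and their median difference was -1.01. On the array labelled Pcgf6KO+ Pcgf6_flag 25 of 31 were lower than wildtype and 0 higher, against 6.48% and 5.97% of all genes. The median there was -2.74 or lower, since it falls on a bound. Postn and Prrx1 were measured only through wildtype and could only be lower. The scaled signals of these 31 genes summed to 139 in wildtype, 79.7 in Pcgf6KO and 60.3 on the third array. The brightest genes govern this sum, and values not well above background enter as they are, so it is no measure of fibroblast content. The matrix protein gene Mgp differed by -7.00 in Pcgf6KO and was at least 82.8-fold lower on the third array than in wildtype. Prrx1, a mesenchymal homeobox gene, was well above background only in wildtype and at least 37.1-fold lower in Pcgf6KO. Lox, which cross-links collagen, differed by -4.04 and Fbln2, a matrix fibulin, by -3.74.

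Not all fibroblast markers were low. Col5a2, a fibrillar collagen gene, was 1.97-fold higher in Pcgf6KO than in wildtype, and 1 marker passed 2-fold upwards when the 75th percentile was taken over probes well above background on all arrays. Fibronectin (Fn1), Sparc, Ccn1 and Tagln, which were chosen after their values were seen, differed by -0.09, -0.22, 0.03 and -0.18. All 31 were well above background in wildtype, and in Pcgf6KO only Prrx1 and Postn were not. On the array labelled Pcgf6KO+ Pcgf6_flag 8 were not, namely Col5a2, Col6a2, Lox, Postn, Mgp, Pdgfra, Pdgfrb and Prrx1. Between the third array and Pcgf6KO 14 of 27 markers were at least 2-fold lower, against 10.3% of all genes. In that comparison Prl2c1 differed by 0.28, A_52_P619248 was at least 1.58-fold lower and A_55_P2004752 gave no bound. The part of feeder RNA in the Prl2c differences was not tested. In such bulk RNA, fewer cells of a type and less RNA per cell cannot be told apart.

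Stem cell markers differed far less than Prl2c, whose genes were chosen for a large difference. Of 12 genes 0 passed 2-fold in Pcgf6KO, where 3.59% of all genes were lower and 6.62% higher. With so few genes, 0 is near those shares. Their median was -0.15, with values from -0.52 for Fgf4, a growth factor, to 0.29 for Klf4, a reprogramming factor. Dppa4 and Utf1 differed by -0.33 and -0.28. On the array labelled Pcgf6KO+ Pcgf6_flag 0 were at least 2-fold lower than wildtype and 1, Tcl1, was higher by 1.15. Of all genes 6.48% were lower there and 5.97% higher.

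Growth factor response and AP-1 genes passed 2-fold in Pcgf6KO at a share near that of all genes. Of 16 genes 1, the AP-1 gene Fosb with -1.13, was lower and 1, the stress-responsive factor gene Atf3 with 1.11, was higher, against 3.59% and 6.62% of all genes. Egr2, an early growth response factor, differed by -0.96 and Myc by -0.47. The median was -0.21 in Pcgf6KO and -0.02 on the array labelled Pcgf6KO+ Pcgf6_flag, where 2 were lower and 1 higher than wildtype, against 6.48% and 5.97% of all genes.

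**Figure D2:**
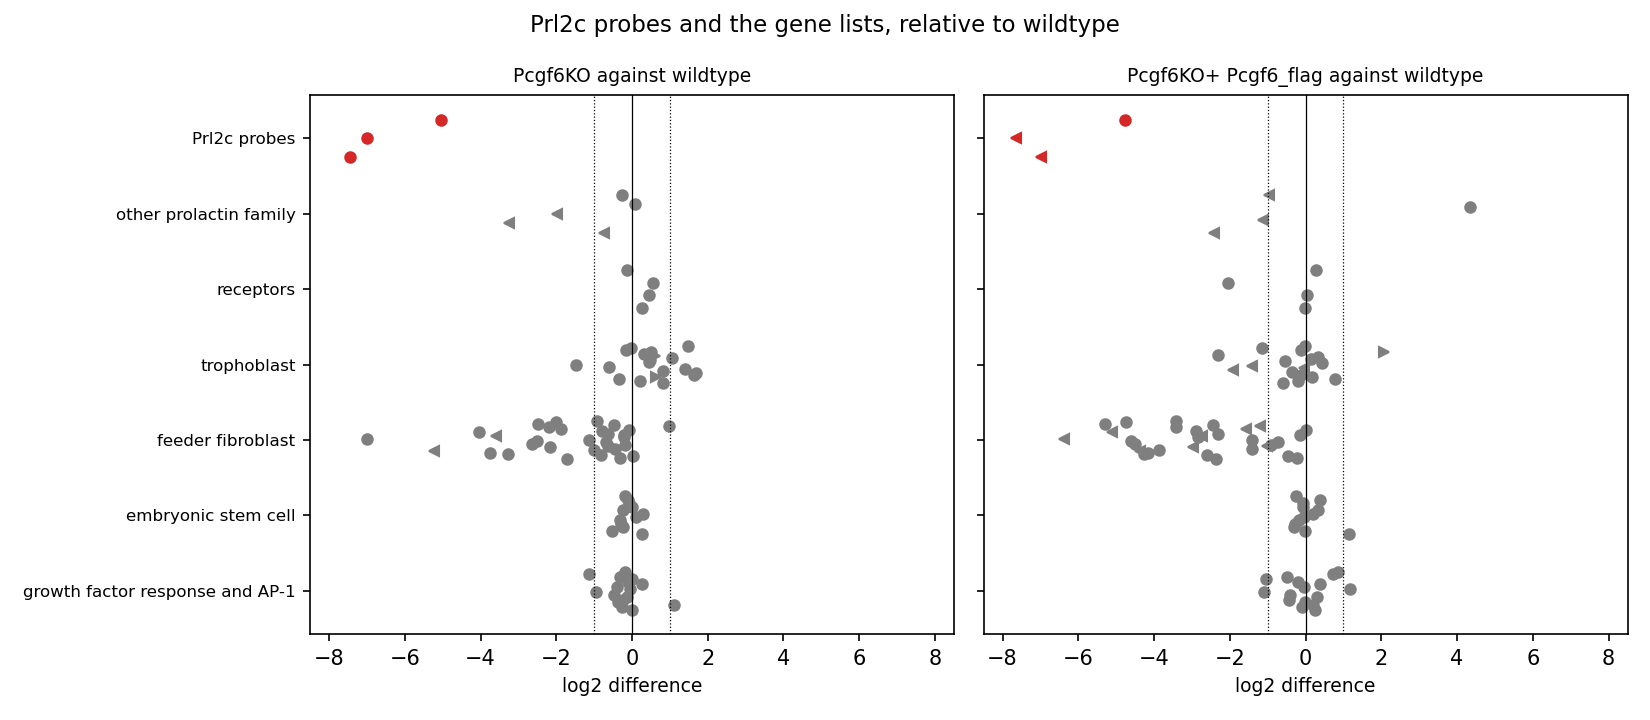
Log2 difference from wildtype of the 3 Prl2c probes (red) and of every comparable gene of the lists (grey), in Pcgf6KO (left) and on the array labelled Pcgf6KO+ Pcgf6_flag (right). Circles were measured on both arrays, triangles are bounds, and dotted lines mark 2-fold. The Prl2c probes lie at -5.05 or lower on the left and -4.78 or lower on the right, and of the lists the fibroblast markers reach furthest down.

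The genes with the most similar pattern were sought by distance. Levels were centred on their mean over the 3 arrays, and the Euclidean distance to the brightest Prl2c probe, A_52_P619248, was taken. This was done for 14362 genes well above background in wildtype and Pcgf6KO. Genes of the lists above and predicted genes were left out. Fibroblast markers with a like pattern therefore could not be named, such as Mgp with levels of 0.89, -6.12 and -7.78. The median distance was 7.19 log2 units. The nearest 8 of the genes compared lay at distances from 1.22 to 2.93. They were Tm4sf1, a membrane protein gene, the peptide hormone gene Cck, Inhba, the activin A subunit, the chemokine gene Ccl7, the caveolar gene Cavin2, Nrp1, a semaphorin and growth factor co-receptor, Ereg, an epidermal growth factor family ligand, and the receptor gene Gpr176. The second Prl2c5 probe lay at 1.39 and Prl2c1 at 3.67.

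Neither A_52_P619248 nor any of these 8 genes was well above background on the array labelled Pcgf6KO+ Pcgf6_flag. The distances include those values as they are, so no order among the 8 can be read from them, and the likeness rests on wildtype and Pcgf6KO. Cck stood at 0.46 in wildtype and -5.75 in Pcgf6KO, a difference of -6.21. Ccl7 differed by -5.40, Cavin2 by -5.49 and Tm4sf1 by -5.30. Inhba differed by -4.71, Nrp1 by -4.23, Ereg by -4.18 and Gpr176 by -3.73. With 3 arrays many genes can share a pattern by their wildtype value alone, and these genes were selected for likeness.

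**Figure D3:**
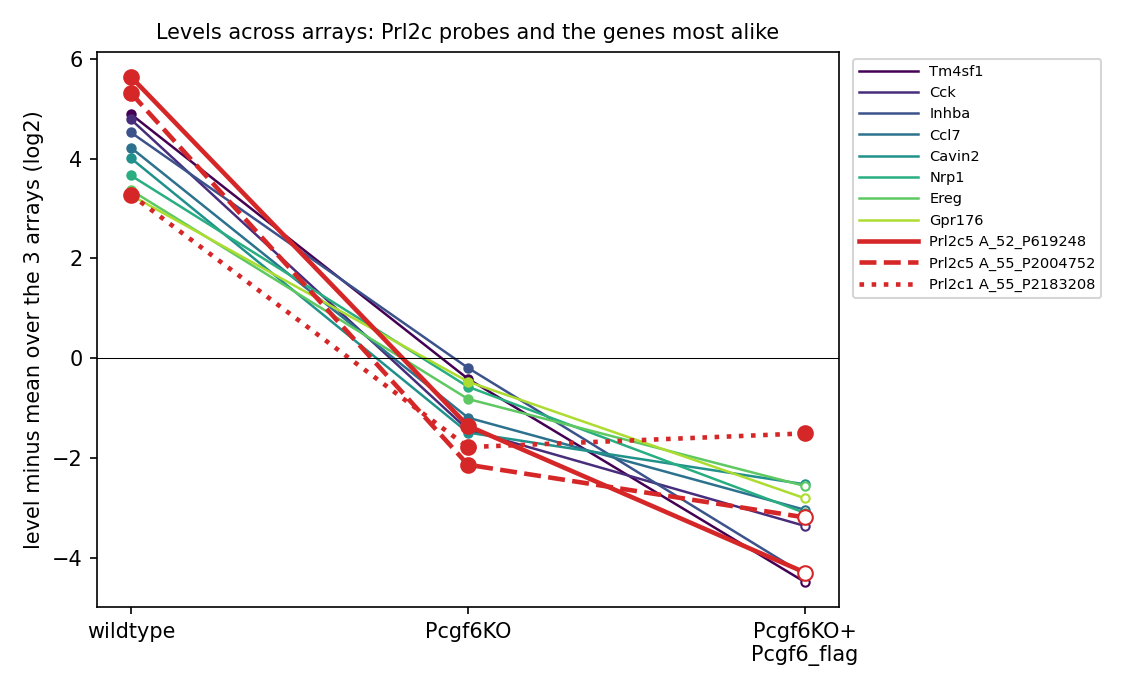
Level minus its mean over the 3 arrays (log2) for the Prl2c probes (red) and the 8 genes outside the lists nearest to A_52_P619248. Open circles were not well above background. In Pcgf6KO all lines lie far below wildtype. Only Prl2c1 has a filled circle on the array labelled Pcgf6KO+ Pcgf6_flag, and the open circles there are background-level values from which no direction is read.

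The Prl2c genes lie in separate places on chromosome 13, and genes around each were examined after the values had been seen. Gene order was taken from GRCm38.p6, and the 4 nearest measured genes on each side are described. Prl2c3, Prl2c2 and Prl2c5 follow one another with 10 other annotated genes between them, 8 of them pseudogenes and 0 with a named probe. Of the 8 measured neighbours of that block 0 passed 2-fold in Pcgf6KO, where they ranged from -0.59 to 0.54. On the array labelled Pcgf6KO+ Pcgf6_flag 0 of 7 passed, between -0.18 and 0.41. The closest measured genes on either side were Gpr137b-ps, a transcribed pseudogene with 0.46 in Pcgf6KO, and its parent gene Gpr137b with 0.54. Nid1, a basement membrane nidogen, differed by -0.59.

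Prl2c1 lies among other prolactin family genes, whose measured members were Prl8a9, Prl3a1, Prl3b1 and Prl3d2, described above. On its other side stood Sox4, Cdkal1, E2f3 and Mboat1, with differences of -0.02, -0.27, 0.16 and 0.75 in Pcgf6KO. Of the 12 neighbours of both places that were outside the prolactin family 0 passed 2-fold in Pcgf6KO, where 3.59% of all genes were lower and 6.62% higher, and 0 of 11 on the array labelled Pcgf6KO+ Pcgf6_flag, where 6.48% were lower and 5.97% higher. With so few genes, 0 is near those shares.

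**Figure D4:**
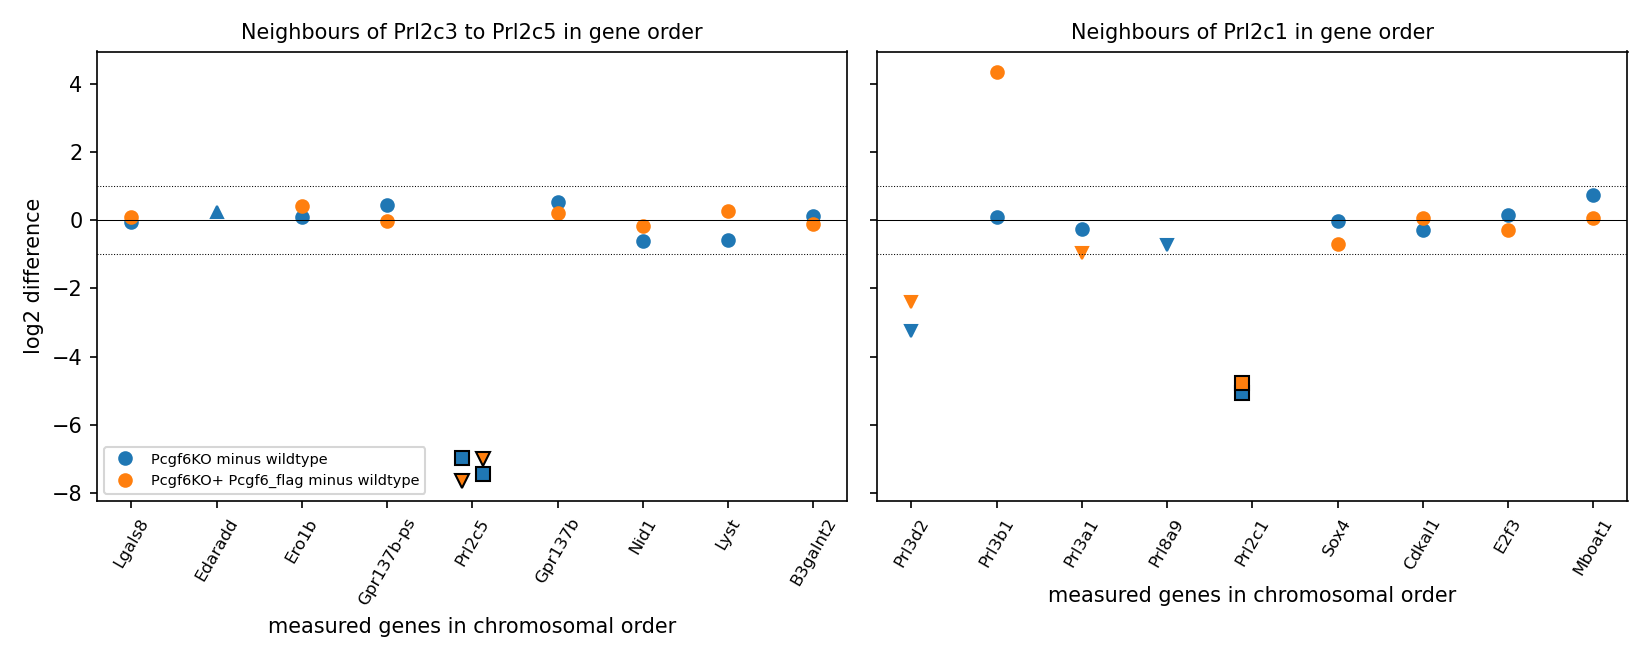
Log2 difference from wildtype of the measured genes nearest in gene order to the block from Prl2c3 to Prl2c5 (left) and to Prl2c1 (right), for Pcgf6KO (blue) and the array labelled Pcgf6KO+ Pcgf6_flag (orange). Outlined symbols are Prl2c probes, triangles are bounds and dotted lines mark 2-fold. The neighbours outside the prolactin family lie between -0.68 and 0.75.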

How the data were processed

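RNA labelled with Cy3 was measured on 1-colour Agilent arrays. Per the file headers, the deposited values are linear spot intensity, from version 11.5.1.1 of the Feature Extraction software, while the submitters' processing notes name 10.7. The deposited value table held the same intensity for 55249 of 55249 single-spot probes on each array (relative tolerance 1e-06), with column medians of 243, 273 and 313, so it is linear, unscaled and without direction. Controls and 141, 158 and 192 spots marked as outliers were left out, and 0 spots were saturated. Unversioned accessions were matched to RefSeq genes of GRCm38.p6, naming 26762 of 55681 probes. The arrays were designed on mm9, so coordinates are those of the promoter table only. Each gene took its level from the brightest of its probes well above background in most spots on at least 1 array. No RefSeq accession of the listed gene Prl3d3 was on the array, and the fibroblast marker Lum was well above background nowhere.

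The genes and lists were chosen with earlier results of these data known. The text names all Prl2c probes, all measured prolactin family and receptor genes, up to 4 genes per other list with the largest Pcgf6KO difference, and the 8 most alike. Exceptions are Pcgf6, Pou5f1, Nanog, Sox2, Tcl1, Col5a2, Fn1, Sparc, Ccn1, Tagln, Tpbpa, Elf5, Psg17, Psg18, Plac1, the neighbours and the undetected markers. Predicted genes and genes of the lists were left out of the most alike. The calls were tested on simulated data. Alternatives were normexp (limma 3.58.1, offset 50, on the median spot signal in place of the planned mean), quantile normalization, other scalings, the deposited table and outlier spots kept. For the lists they were also thresholds of 1.5-fold and 3-fold, no filter and the mean over probes. Python 3.11.15, R 4.3.3, numpy 2.4.6, pandas 2.3.3, biopython 1.88 and matplotlib 3.10.9 were used. The number of arrays limits the precision.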

Additional observations from a re-analysis of the deposited data

How the results depend on the processing

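All 3 Prl2c probes remained at least 2-fold lower than wildtype on both other arrays under 6 other settings (normexp, quantile normalization, 2 scalings, the deposited table and outlier spots kept). Between the array labelled Pcgf6KO+ Pcgf6_flag and Pcgf6KO, Prl2c1 stayed within 2-fold, from 0.19 to 0.33. The bound for A_52_P619248 there ran from -0.81 to -0.51, limited by the lowest signal well above background on the third array. Over all settings the difference between Pcgf6KO and wildtype ran from -5.09 to -4.81 for Prl2c1, from -7.02 to -6.41 for A_52_P619248 and from -7.48 to -5.95 for A_55_P2004752. The smallest sizes came from normexp, which adds an offset of 50 to signals as low as 70.5. Against wildtype on the array labelled Pcgf6KO+ Pcgf6_flag, Prl2c1 ran from -4.90 to -4.48 and the Prl2c5 bounds from -7.77 to -6.92 and from -7.12 to -6.13. Leaving out spots with a marked local background, added after seeing the data, removed A_52_P619248 and left 2 of 2 probes lower. The background-subtracted signal, also added, left 3 of 3 lower in Pcgf6KO. Scaling to the median moved the median of all genes to -0.14 on the third array against wildtype. At 2-fold, the counts of fibroblast markers lower than wildtype were 15 or 16 in Pcgf6KO and between 23 and 26 on the third array. In Pcgf6KO they were 22 at 1.5-fold and 14 at 3-fold, and on the third array 27 and 20. The share of all genes at 1.5-fold and 3-fold is not given, so those counts cannot be set beside it. Of 360 list counts under alternatives 322 were within 1.5 times the main count and 38 were not. Many main counts were 0 and seldom moved, and the deposited table and outlier spots kept gave nearly the same values. The 322 is therefore no measure of stability. Without the filter on dim probes, 6 prolactin family genes were at least 2-fold lower than wildtype in Pcgf6KO and 0 higher. On the third array 5 were lower and 3 higher. With the filter, which fixed their direction, 2 were lower in each. Quantile normalization and scaling to the median gave 3 lower on the third array, and normexp gave 1. No share of all genes without the filter is given, so these counts are not read as a result about the family. Trophoblast genes higher in Pcgf6KO numbered 9 at 1.5-fold and 2 at 3-fold, against 5 at 2-fold. The 9 include Elf5 and Psg17, which could only be higher. No share of all genes at 1.5-fold or 3-fold is given, so the 9 and the 2 are not read as a result. No paired analysis was possible because each group has 1 array.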

Other observations

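Tpbpa, a marker of the placental spongiotrophoblast that was named after its value was seen, was well above background only on the array labelled Pcgf6KO+ Pcgf6_flag. It was at least 4.17-fold higher there than in wildtype and at least 4.51-fold higher than in Pcgf6KO. Psg18, a pregnancy-specific glycoprotein gene named in the same way, was 2.15-fold higher on that array than in Pcgf6KO, with levels of -4.27 in wildtype, -4.60 in Pcgf6KO and -3.50 there. Plac1, a placental surface protein gene also named after its value was seen, was at least 10.02-fold lower there than in Pcgf6KO, with levels of -3.57 in wildtype and -2.16 in Pcgf6KO. Apart from Tpbpa, Prl3b1 and Psg18 were higher in that sample than in Pcgf6KO, and Plac1 was lower. Tpbpa, Psg18 and Plac1 were picked by their values, so no share of placental genes can be read from them.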
